A study of Mus musculus with 6 samples.

Results

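The 28 genes described here encode enzymes of cholesterol and fatty acid synthesis, the regulators that set their transcription, and a sterol carrier. They were chosen by name from the 24288 gene symbols of the expression table, and each was represented by the entry with the highest total over the 6 libraries. RNA sequencing was performed on day 2 epiblast-like cells (EpiLCs), which model the early post-implantation epiblast, to compare wild-type (WT) cells with cells that lack functional Smad2 and Smad3 (Smad2/3 DKO). Smad2 and Smad3 carry Nodal and activin signals to the nucleus. The question asked of these genes is whether the pathway moved as a unit between the genotypes.

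WT EpiLCs came from the CCE embryonic stem cell line of strain 129/Sv//Ev. The DKO line was of the same strain, and both lines were XY. DKO EpiLCs came from the clone KT15.1F6, in which Smad3 was deleted by genome editing of cells that were already homozygous for a targeted Smad2 allele. Each genotype was thus 1 line, differentiated 3 times, so differences between the lines and effects of the knockout cannot be told apart. Both lines were kept with the inhibitors PD0325091 (1 μM) and CHIR99021 (3 μM) and with LIF (1000 U/ml), and were then given activin A (20 ng/ml), Fgf2 (12 ng/ml) and 1% KSR for 48 h on fibronectin. Activin A was therefore present in both groups.

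Cholesterol is built from acetyl-CoA through mevalonate, the isoprenoid farnesyl pyrophosphate, squalene and lanosterol. Fatty acids are built from the same acetyl-CoA after it has been carboxylated to malonyl-CoA. The transcription of both sets of enzymes is driven by the Srebp proteins, which are made as membrane-bound precursors, escorted by Scap to the Golgi for cleavage when sterols are low, and held back in the endoplasmic reticulum by Insig proteins when sterols are high. Srebf2 encodes the form best known for cholesterol genes and Srebf1 the forms best known for fatty acid genes. Messenger RNA was measured here, not precursor cleavage or sterol content.

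Promoter sequences are shown for 4 members because they represent the different outcomes described below. Hmgcs1 differed by less than the spread between libraries, Insig1 and Fasn were lower in DKO, and Ebp was higher. Each window covers the 220 bases before the RefSeq start site (GRCm38.p6), printed 5′ to 3′ on the strand of the gene. Capitals mark CCAAT boxes (CCAAT, or ATTGG when the box lies on the other strand) and the core of a sterol regulatory element, the sequence bound by Srebp proteins, searched as TCACNCCAC on both strands.
Hmgcs1, chr13:119690131-119690350, plus strand: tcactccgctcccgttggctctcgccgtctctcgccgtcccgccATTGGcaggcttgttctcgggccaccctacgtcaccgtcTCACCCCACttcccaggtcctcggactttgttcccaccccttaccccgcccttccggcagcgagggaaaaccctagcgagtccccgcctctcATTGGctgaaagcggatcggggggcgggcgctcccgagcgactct
Insig1, chr5:28071192-28071411, plus strand: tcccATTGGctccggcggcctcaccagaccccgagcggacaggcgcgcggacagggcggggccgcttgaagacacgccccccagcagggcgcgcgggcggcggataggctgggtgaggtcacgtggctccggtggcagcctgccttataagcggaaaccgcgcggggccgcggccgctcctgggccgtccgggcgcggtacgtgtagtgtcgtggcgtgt
Fasn, chr11:120824548-120824767, minus strand: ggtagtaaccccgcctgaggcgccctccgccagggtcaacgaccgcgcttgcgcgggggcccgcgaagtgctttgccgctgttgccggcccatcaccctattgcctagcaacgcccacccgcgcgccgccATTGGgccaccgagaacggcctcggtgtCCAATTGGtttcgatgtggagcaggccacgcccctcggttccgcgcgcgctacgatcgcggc
Ebp, chrX:8193513-8193732, minus strand: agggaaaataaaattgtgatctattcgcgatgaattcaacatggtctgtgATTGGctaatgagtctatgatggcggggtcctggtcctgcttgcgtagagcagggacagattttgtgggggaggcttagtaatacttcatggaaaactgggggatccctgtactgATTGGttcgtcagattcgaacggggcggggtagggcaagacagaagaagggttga

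In Hmgcs1 the element core starts 137 bases before the start site and lies between CCAAT boxes at -176 and -45 (further boxes at -237 and 10 lie outside the printed window). Fasn carries CCAAT boxes at -90, -62 and -59, the last 2 of them overlapping on opposite strands. In Ebp, boxes lie at -170 and -55, and in Insig1 a box lies at -216. Across windows of 300 bases (250 before to 50 after the start site), which were given for 22 of the 28 members, the element core was present in Hmgcs1 alone, against 1.44% of the 27025 genes with a window. Only this form of the core was searched, and only in these windows. A member without a match may therefore still carry another form or a site elsewhere. The CCAAT box was found in 19 of the 22 members and in 41.1% of all genes, and the GC box GGGCGG, bound by Sp proteins, in 19 of the 22 and in 38.2% of all genes. The CCAAT box is thus present both in promoters of members that fell and in that of Ebp, which rose.

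Each library held between 57644143 and 63046034 recovered reads over 1 entry per gene. The level of a gene is given as normalized reads, which are reads over the gene body scaled by a size factor that all genes of a library share, and are not corrected for gene length. Smad3, which was deleted, was at 839 ± 37.0 normalized reads in the WT libraries and dropped to 23.6 ± 6.16 without it (SD over 3 libraries). Smad2 measured 4520 ± 86.3 and 5062 ± 109, so its reads over the gene body do not show the targeted allele. Epiblast markers were abundant in both groups (9 genes summed to 145380 to 149710 normalized reads in WT and 156850 to 160290 in DKO). Sums over markers of trophoblast (7 genes, 140 to 158 in WT and 472 to 580 in DKO) and endoderm (10 genes, 366 to 407 and 430 to 498) were higher in DKO, that over fibroblast markers was lower (7 genes, 1574 to 1653 and 476 to 521), and that over neural markers was 1048 to 1058 and 998 to 1037 over 5 genes. Single genes led some of these sums. Among the endoderm markers Cubn rose from 86.7 ± 4.06 to 168 ± 38.6, while Dab2 fell from 198 ± 17.2 to 154 ± 14.4. Among the fibroblast markers Dcn fell from 1330 ± 51.3 to 300 ± 16.9, while Col3a1 and Thy1 did not pass the test. At most 3 reads per library were found for Postn among the fibroblast markers, and no marker of the other lists was at that level in all libraries. Over 1.5-fold, 6 of 6 tested trophoblast markers and 3 of 9 tested endoderm markers were called higher, 2 of 5 fibroblast markers lower, 2 of 9 epiblast markers in each direction and 1 of 4 neural markers in each direction. The part of these cell types in the values of the lipid genes was not tested, and in bulk RNA fewer cells of a type and less RNA per cell cannot be told apart.

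All 28 lipid genes passed the filter on low values, with 969 reads or more per library, so counting error was at most 3.21% of a value. None of the 28 was called changed by the rule of the study, an adjusted p under 0.05 together with a fold change over 1.5 (limma, Benjamini-Hochberg over all entries tested). By the same rule 15.4% of 17038 genes were called, 8.03% as lower and 7.34% as higher in DKO. The largest difference among the members was 1.37-fold, and the 95% intervals of all 28 lay inside 1.5-fold in both directions. For 19 of them the interval lay inside 1.2-fold, against 37.8% of all genes. As the members are abundant, the 11943 genes with a mean of 100 or more normalized reads are a closer background, and of these 10.1% were called by the rule of the study and 53.8% had an interval inside 1.2-fold.

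Smaller differences went in both directions. With the adjusted p alone, 14 members were lower in DKO, 3 were higher and 11 did not pass. Among all genes, 26.5% were lower and 27.1% higher by this criterion, and among the more abundant genes 29.8% and 31.4%. The 3 WT values and the 3 DKO values did not overlap for 15 of the 28, compared with 59.0% of all genes and 65.8% of the more abundant ones. The median log2 fold change of the members, which is the difference of DKO minus WT on the log2(value + 1) scale, was -0.07, beside 0.00 for all genes. It ran from -0.03 without WT replicate 3 to -0.10 without WT replicate 1 when single libraries were left out. Percent changes of single genes are taken from the fitted log2 fold changes. The median size of a member's difference, regardless of direction, was 0.10, that of all genes was 0.19, and that of the more abundant genes was 0.14. A negative difference was found in 19 members (67.9%) and a positive one in 9. Among all genes 50.0% were negative, and among the more abundant genes 49.1%. The members thus leaned to lower values in DKO. They did not all share this direction, since 3 passed the adjusted p as higher.

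**Figure D1:**
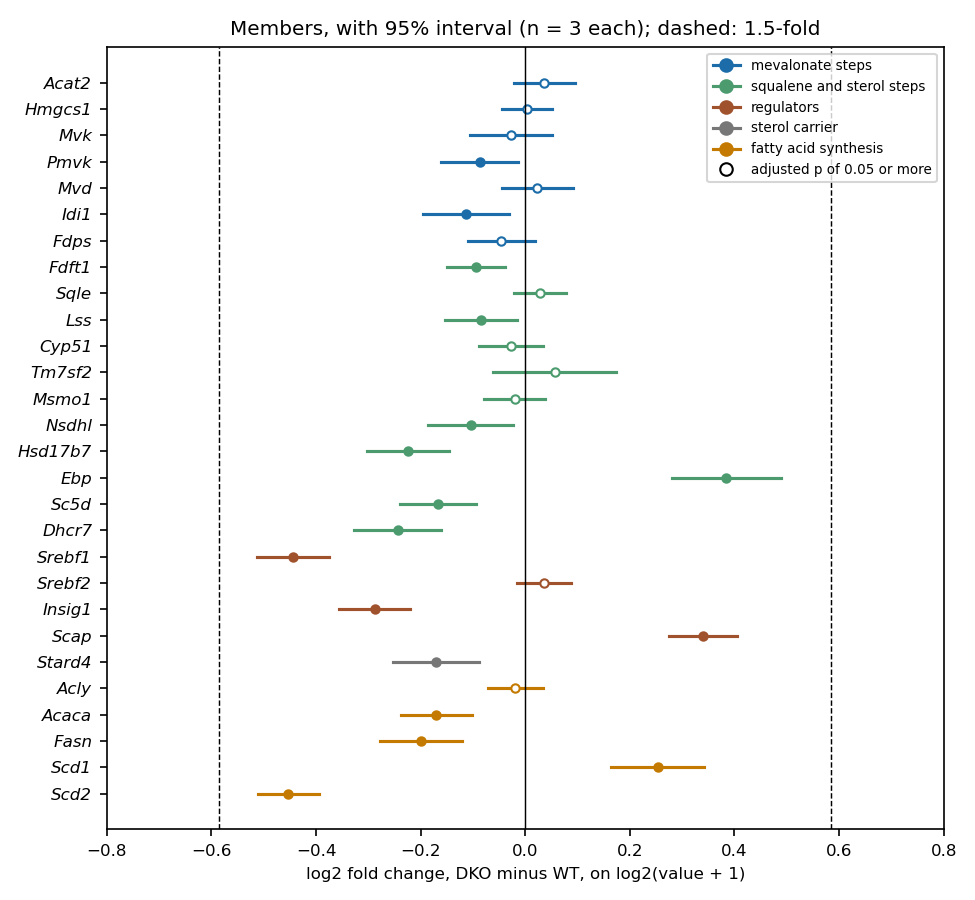
Log2 fold change of each of the 28 members (x axis, DKO minus WT on log2(value + 1)), with 95% intervals as bars, coloured by role and open where the adjusted p was 0.05 or more, from 3 libraries per genotype. No interval reaches the dashed lines at 1.5-fold, and Ebp, Scap and Scd1 lie to the right of 0 while Scd2, Srebf1 and Insig1 lie farthest to the left.

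Enzymes of the early steps, from acetyl-CoA to farnesyl pyrophosphate, hardly differed between the genotypes. Hmgcs1, the synthase that makes hydroxymethylglutaryl-CoA, measured 28099, 29693 and 29293 normalized reads in WT and 29140, 28637 and 29501 in DKO. The log2 fold change was 0.00 ± 0.02 (SE), with a 95% interval from -0.04 to 0.05. The values of the groups interleave. Acat2, the cytosolic thiolase of the step before it, measured 4511 ± 53.8 in WT and 4626 ± 127 in DKO (SD, n = 3 each). Mvk (mevalonate kinase) measured 1886 ± 80.0 and 1851 ± 67.9, and Mvd, the decarboxylase that makes isopentenyl pyrophosphate, measured 3004 ± 103 and 3052 ± 106. For Fdps, the farnesyl pyrophosphate synthase, the level was 6531 ± 282 in WT and 6325 ± 239 in DKO.

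The other 2 genes of these steps were lower in DKO at an adjusted p under 0.05, each by less than 8%. Idi1, which interconverts the isopentenyl units, measured 1787 ± 18.1 and 1653 ± 103 normalized reads (log2 fold change -0.11 ± 0.04, limma adjusted p = 0.018). Pmvk (phosphomevalonate kinase) measured 2069 ± 62.6 and 1948 ± 57.3 (-0.09 ± 0.04, adjusted p = 0.0397). Neither call was kept in every subset of libraries. Without DKO replicate 1 the adjusted p of Idi1 was 0.204, and for Pmvk it was 0.0986 without WT replicate 2, 0.154 without WT replicate 3 and 0.204 without DKO replicate 2. The intervals of all 7 genes of these steps lay inside 1.2-fold, and their median log2 fold change was -0.03.

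From squalene to cholesterol, 6 of 11 enzymes were lower, 1 was higher and 4 did not pass the test, with a median log2 fold change of -0.08. Sqle, the squalene epoxidase and a slow step of the pathway, measured 11998, 12478 and 12470 normalized reads in WT and 12363, 12567 and 12736 in DKO. The log2 fold change was 0.03 ± 0.02, with a 95% interval from -0.02 to 0.08. Its groups overlap. Fdft1, which joins farnesyl units into squalene, was lower (10210 ± 260 in WT, 9564 ± 325 in DKO, log2 fold change -0.09, limma adjusted p = 0.00423), and so was Lss, which closes the ring to lanosterol (8423 ± 398 and 7945 ± 445, -0.08, adjusted p = 0.0345). The lanosterol demethylase Cyp51 (12500 ± 485 and 12262 ± 562), the methylsterol oxidase Msmo1 (9847 ± 313 and 9709 ± 371) and the sterol reductase Tm7sf2 (587 ± 37.1 and 610 ± 34.2) did not pass.

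Differences were larger among enzymes of the later steps, and went both ways. Nsdhl, which takes part in removing the methyl groups of lanosterol, measured 2530 ± 137 in WT and 2354 ± 128 in DKO (-0.10, limma adjusted p = 0.0281). Hsd17b7, the ketoreductase of the same reaction series, fell by 14.4% (2095 ± 73.8 and 1795 ± 86.4, adjusted p = 1.47e-05). For Sc5d, the lathosterol desaturase, the fall was from 2135 ± 86.8 to 1900 ± 24.9, and for Dhcr7, the reductase that makes cholesterol from 7-dehydrocholesterol, it was from 1828 ± 66.4 to 1544 ± 81.5. The 3 DKO values of Dhcr7 were 1526, 1474 and 1633, all under the WT values of 1876, 1752 and 1857. Its log2 fold change was -0.24 ± 0.04 (adjusted p = 8.93e-06).

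Ebp stood against this direction. It encodes the sterol isomerase that acts just before Sc5d and Dhcr7, on the X chromosome (mm10, 8185329 to 8193512). Its levels were 649, 631 and 698 normalized reads in WT and 886, 863 and 832 in DKO. All DKO libraries exceeded all WT libraries, the log2 fold change was 0.38 ± 0.05 (SE, limma adjusted p = 2.19e-07), and the interval of the difference ran from 0.28 to 0.49. The 3 enzymes that follow each other at the end of the pathway therefore differed in sign, Ebp being higher and Sc5d and Dhcr7 lower in DKO.

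The calls of Fdft1, Lss and Nsdhl were lost without single libraries, while the difference stayed negative. Over all alternatives the log2 fold change ran from -0.12 to -0.07 for Fdft1, from -0.13 to -0.05 for Lss and from -0.15 to -0.07 for Nsdhl. Fdft1 had an adjusted p of 0.0598 without DKO replicate 2. For Lss it was 0.0707, 0.229, 0.171 and 0.176 without WT replicate 2, WT replicate 3, DKO replicate 1 and DKO replicate 2, and 0.237 by DESeq2. For Nsdhl it was 0.11, 0.148, 0.0531 and 0.211 without the same libraries in the same order. Overlapping genes could add reads to 5 members, because the use of strand in counting is not given in the sources used here. Fdft1, Lss, Cyp51 and Srebf1 overlap Ctsb, 4930483K19Rik, Akap9 and Rai1 on the opposite strand, and Tm7sf2 overlaps Vps51 on the same strand.

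Of the 4 regulators, 2 fell, 1 rose and 1 did not pass the test. Srebf1 (chromosome 11, 60199084 to 60224186) measured 4470, 4501 and 4829 normalized reads in WT and 3305, 3286 and 3552 in DKO. Every DKO value lay below every WT value, a fall by 26.5% or -0.44 ± 0.03 as log2 fold change (SE, adjusted p = 6.45e-12 by limma). Srebf2 measured 8734, 8710 and 8810 in WT and 8975, 8751 and 9189 in DKO. These ranges overlap, and the log2 fold change was 0.04 ± 0.03 with an interval from -0.02 to 0.09. The ratio of Srebf1 to Srebf2 reads was 0.526 ± 0.020 in WT and 0.377 ± 0.009 in DKO (SD, n = 3 each, exact permutation p = 0.1, two-sided, the smallest that 3 against 3 libraries allow).

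Insig1, whose protein holds Scap and Srebp precursors back, measured 12405, 13252 and 13734 normalized reads in WT and 10407, 10422 and 11434 in DKO. The groups were apart, and the log2 fold change was -0.29 ± 0.03 (SE, adjusted p = 2.31e-08 by limma). Scap, the escort, went the other way. Its levels were 2874, 2770 and 2991 in WT and 3590, 3650 and 3690 in DKO, an increase of 26.6% (log2 fold change 0.34 ± 0.03, adjusted p = 4.04e-10). The ratio of Insig1 to Scap reads was 4.56 ± 0.23 in WT and 2.95 ± 0.13 in DKO (SD, n = 3 each, exact permutation p = 0.1, two-sided). Because both genes separated the groups in opposite directions, their ratio had to separate them too, so this p adds no support. Stard4, a soluble carrier that moves cholesterol between membranes, fell from 1845 ± 59.4 to 1640 ± 93.7 (adjusted p = 6.73e-04).

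**Figure D2:**
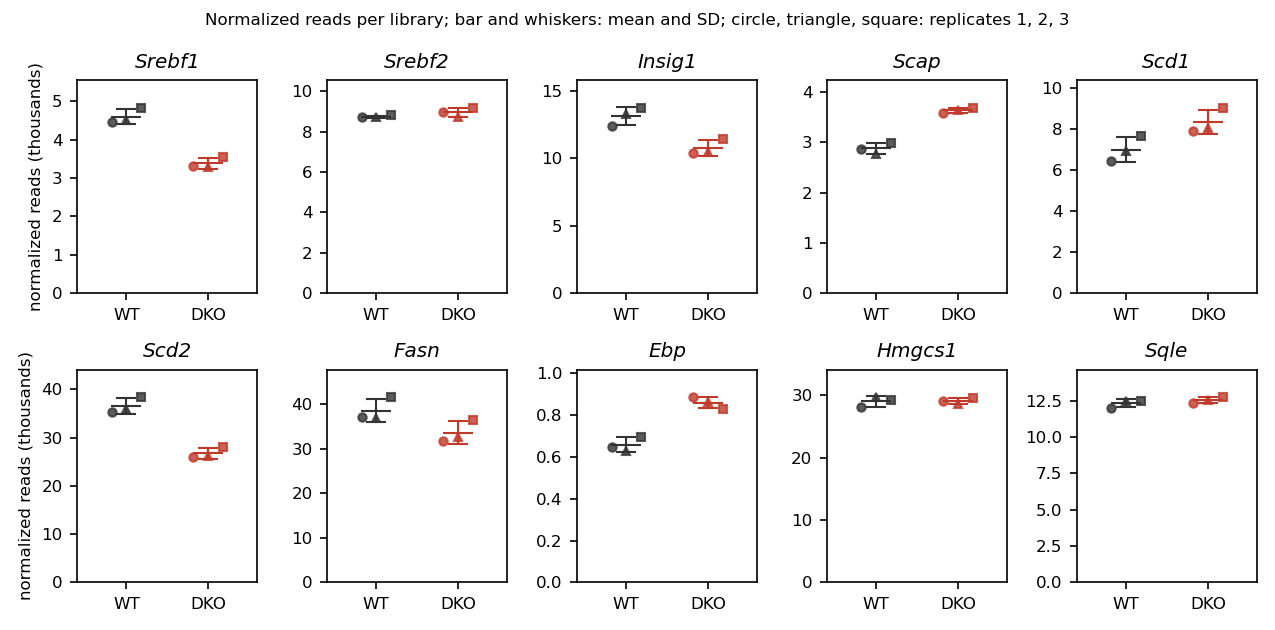
Normalized reads divided by 1000 (y axes, starting at 0) of 10 members in the 3 WT and 3 DKO libraries, with a bar and whiskers for mean and SD and a circle, triangle or square for replicate 1, 2 or 3. Srebf1, Insig1, Scd2 and Fasn are lower in every DKO library and Scap, Scd1 and Ebp are higher in every DKO library, whereas Srebf2, Hmgcs1 and Sqle overlap.

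Of the fatty acid enzymes, 3 of 5 were lower, 1 was higher and 1 did not pass, with a median log2 fold change of -0.17. Acly, which splits citrate into cytosolic acetyl-CoA and so feeds both pathways, measured 25677, 26568 and 28071 normalized reads in WT and 26316, 26351 and 26551 in DKO. All DKO values lay within the WT range (log2 fold change -0.02 ± 0.03). Acaca, the carboxylase that makes malonyl-CoA, fell from 5322 ± 117 to 4734 ± 277 (-0.17 ± 0.03, limma adjusted p = 7.78e-05). Fasn, the fatty acid synthase, measured 37156, 37006 and 41568 in WT and 31698, 32657 and 36484 in DKO. Its highest DKO value came close to its lowest WT value, and the fall was 12.9% (-0.20 ± 0.04, adjusted p = 6.00e-05).

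The desaturases Scd1 and Scd2 moved in opposite directions. Both insert the double bond that turns stearate into oleate, and they are neighbouring paralogs on chromosome 19 (Scd2 at 44293676 to 44306864 and Scd1 at 44394450 to 44407709). Scd2 measured 35344, 35989 and 38344 normalized reads in WT and 25944, 26139 and 28027 in DKO. This was the largest difference among the members, a fall by 27.0% (log2 fold change -0.45 ± 0.03, SE, limma adjusted p = 8.72e-14). Scd1 measured 6451, 6901 and 7640 in WT and 7924, 8054 and 9034 in DKO, an increase of 19.2% (0.25 ± 0.04, adjusted p = 1.41e-05). In both cases the groups did not overlap.

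Within each library, Scd1 made up 16.0% ± 0.59 of the summed Scd1 and Scd2 reads in WT and 23.8% ± 0.53 in DKO (SD, n = 3 each). The ratio of Scd2 to Scd1 was 5.48, 5.21 and 5.02 in the WT libraries and 3.27, 3.25 and 3.10 in the DKO libraries (exact permutation p = 0.1, two-sided). As Scd1 and Scd2 each separated the groups, in opposite directions, their share and ratio had to separate them too. This p therefore adds no support. How reads shared by near-identical paralogs were assigned is not given in the sources used here, so the levels of Scd1 and Scd2 are uncertain to that extent.

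Levels can be compared between genes only per length. Per kilobase of annotated gene span, introns included, Scd2 had the highest level of the members in WT (2772 normalized reads per kb), followed by Fasn (2008), Insig1 (1811) and Hmgcs1 (1621). Acaca had the lowest (19.6), over a span of 272 kb. In DKO the leading genes were Scd2 (2025), Fasn (1750), Hmgcs1 (1624) and Insig1 (1483), so that Hmgcs1 and Insig1 exchanged places. Because the span includes introns, a value per kb is not a level per length of mature transcript.

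Summed levels were compared next, and they differed between the sets of enzymes in whether the genotypes overlapped. All 28 members together took 0.767% to 0.816% of the normalized reads in the WT libraries and 0.708% to 0.758% in the DKO libraries. The 18 mevalonate and sterol enzymes summed to 108400 to 114160 normalized reads in WT and 107260 to 113060 in DKO, which overlap. The 5 fatty acid enzymes summed to 109910 to 121080 in WT and to 96547 to 105140 in DKO, which do not overlap. Because a sum is led by abundant genes, Scd2 and Fasn weigh most in it.

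Where the members did move together was between libraries of the same genotype. In WT replicate 3, all 28 members lay above their WT mean on the log2 scale, and in DKO replicate 3, 27 of 28 lay above their DKO mean, the exception being Ebp. In the other libraries 4 (WT replicate 1), 11 (WT replicate 2), 8 (DKO replicate 1) and 5 (DKO replicate 2) of 28 did so. For the 8639 genes whose mean reached 500 normalized reads, the share above the group mean was 55.6% in WT replicate 3 and 42.2% in DKO replicate 3. Members above their mean in both of these libraries numbered 27 (96.4%), compared with 24.2% of those 8639 genes and 25.2% of all genes tested. Of the 45 further lipid genes described below, 17 (37.8%) lay above their mean in both. These included 7 of 12 fatty acid synthesis genes (58.3%) and 4 of 10 fatty acid oxidation genes (40%).

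The shift was small in size. The median deviation of the members from their own genotype mean was 0.05 in WT replicate 3 and 0.06 in DKO replicate 3, on the log2 scale, against -0.04 and -0.01 in WT replicates 1 and 2 and -0.02 and -0.04 in DKO replicates 1 and 2. It is close in size to the median difference between the genotypes. Measured from the mean of all 6 libraries, the medians were -0.03, 0.04 and 0.08 in WT and -0.05, -0.07 and 0.03 in DKO, so the genotypes overlap in this median, although the sums over all 28 members do not. Replicate numbers name separate differentiations, and what the third libraries have in common was not tested. The members of a library are therefore not independent observations. Leaving out replicate 3 in both groups, an alternative chosen after seeing the data, gave 13 members lower and 3 higher, with a median log2 fold change of -0.06.

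**Figure D3:**
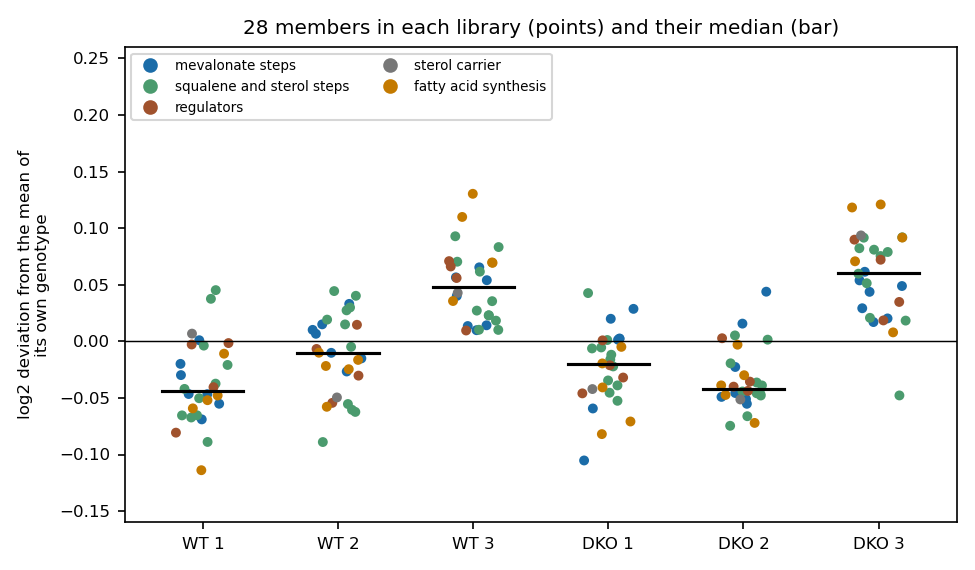
Log2 deviation of each of the 28 members from the mean of its own genotype (y axis) in each of the 6 libraries (x axis), coloured by role, with a bar for the median. In WT replicate 3 all 28 points and in DKO replicate 3 27 points lie above 0.

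A list of 45 further genes of lipid metabolism placed the members in context. All 45 were tested, and by the rule of the study 2 were lower in DKO and none was higher, beside 8.03% and 7.34% of all genes. The count lower was 3 with TMM factors, edgeR, DESeq2 or voom. Abcg1, an exporter of cholesterol, measured 899, 871 and 981 normalized reads in WT and 545, 515 and 574 in DKO (log2 fold change -0.75 ± 0.05, SE, adjusted p = 2.16e-12 by limma). Cyp39a1, an oxysterol hydroxylase, measured 101, 112 and 81.1 in WT and 52.7, 50.4 and 51.8 in DKO (-0.90 ± 0.14, adjusted p = 5.99e-06). Both fell in every DKO library relative to every WT library, and both had fewer reads than most members. Abca1, also among the 45 and picked with its values in view, rose from 147 ± 12.4 to 189 ± 15.0 (SD, limma adjusted p = 0.00275). Mylip, picked in the same way, did not pass the test. With the adjusted p alone, 18 of the 45 were lower and 13 higher, beside 26.5% and 27.1% of all genes. The median log2 fold change of the 45 was -0.04.

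Counts at an adjusted p under 0.05 are given next for each list. By this criterion 26.5% of all genes were lower and 27.1% higher, and 29.8% and 31.4% of the more abundant genes. Among 8 genes of cholesterol uptake, storage and transport 6 were lower and 1 was higher, among 12 further genes of fatty acid synthesis 6 were lower and 1 higher, and among 7 further sterol and isoprenoid genes 3 were lower and 1 higher. Of 8 genes of Srebp processing and sterol sensing, 2 were lower and 3 higher. Among 10 genes of mitochondrial fatty acid oxidation, 7 were higher and 1 was lower, with a median log2 fold change of 0.25, against 0.00 over all genes and -0.17 over the 5 fatty acid synthesis members. This list was described by the same fit as the others, and the difference between the lists was not tested.

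The examples that follow were picked with their values in view, outside the rule for named genes, and are given as description. Acaa2, the thiolase of the last step of fatty acid oxidation, rose from 638 ± 38.0 to 904 ± 43.9 normalized reads (SD, n = 3 each, log2 fold change 0.50 ± 0.05). Acadvl, the very long chain acyl-CoA dehydrogenase, rose from 1011 ± 60.4 to 1352 ± 31.8. Cpt1a, which admits fatty acids to mitochondria, fell from 463 ± 26.1 to 349 ± 29.0 (-0.41 ± 0.07). On the synthesis side, Mid1ip1, an activator of acetyl-CoA carboxylase, fell from 3884 ± 126 to 2591 ± 59.1 (-0.58 ± 0.03), just under the 1.5-fold threshold of 0.585 on the log2 scale. Fads2, the desaturase that starts the synthesis of polyunsaturated fatty acids, fell from 6561 ± 460 to 4880 ± 278 (-0.43 ± 0.04).

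**Figure D4:**
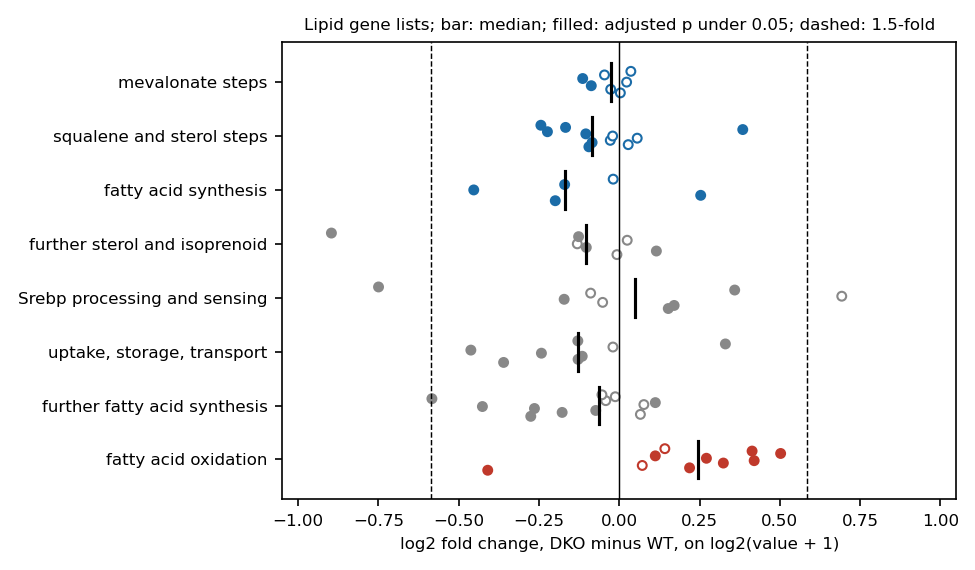
Log2 fold change (x axis, DKO minus WT on log2(value + 1)) of single genes in 3 groups of members (blue), 4 further lists (grey) and fatty acid oxidation (red), filled where the adjusted p was under 0.05, with a bar for the median and dashed lines at 1.5-fold. The median of the oxidation list is 0.25 and those of the member groups are -0.03, -0.08 and -0.17.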

How the data were processed

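Total RNA from 3 WT and 3 Smad2/3 DKO EpiLC differentiations was depleted of ribosomal RNA, and stranded libraries were sequenced paired-end over 75 cycles. The authors filtered ribosomal reads with bowtie2, aligned to mm10 with STAR, discarded PCR duplicates (Samtools) and annotated refGene gene bodies with their reads, read here as including introns. The deposited expression table holds a signal, namely reads divided by 1 size factor per library. A deposited table of the authors' own DESeq2 comparison (mean signal, log2 fold changes, p-values) was not used. Dividing by the value of 1 read gave whole reads (tolerance 0.001) for 100% of the values, and 138 rows without a symbol (0.517% of reads) were left out of tests.

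limma (version 3.58.1, R 4.3.3) was run on log2(value + 1) with a variance trend over all entries that passed filterByExpr of edgeR (4.0.16), which understates the fold change of genes with few reads. Background shares were counted over 1 entry per gene. Alternatives were edgeR, DESeq2 (1.42.0) and voom on recovered reads, TMM factors, other pseudocounts, no filter, 1 entry per gene, the lowest-total entry, a test against 1.5-fold, a replicate block and leaving out libraries. The fits were tested on simulated data. Named genes were all members, Smad2, Smad3 and further pathway genes over the threshold. Members and lists were chosen with earlier results of these data known. Within a genotype, counts differed by 3.00 to 4.61 times the sampling variance, so no library looked deposited again. Promoters (GRCm38.p6) and gene spans came from RefSeq, and gene strands and overlapping genes from GENCODE vM21. Errors cover replicate spread or counting only, since reads carry no molecular identifiers.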

Additional observations from a re-analysis of the deposited data

How the results depend on the processing

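No member was called over 1.5-fold under any of the 18 alternatives. The test against 1.5-fold itself gave 0 members lower and 0 higher, 1 further pathway gene lower (Abcg1), 0 oxidation genes higher and 0 further fatty acid synthesis genes lower, because it asks for more than a difference from 0. Leaving out single libraries gave 10 to 15 members lower, 3 higher, a median of the members from -0.0955 to -0.0342, 0 to 1 further pathway genes higher over 1.5-fold (1 without WT replicate 1) and 2 to 3 lower (3 without WT replicate 2 or DKO replicate 3, and with TMM factors, edgeR, DESeq2 or voom). Same-numbered libraries did not deviate together over all genes (r = 0.01, -0.03 and 0.04 over 11930 genes), so the numbers were not taken to pair the libraries. With a replicate block, 14 members were lower and 3 higher, and no member's call changed. Signs turned only in members near 0 that were not called. Hmgcs1 had a log2 fold change of -0.0024 with TMM factors, -0.0026 by edgeR, -0.0003 by DESeq2 and -0.0022 by voom, and from -0.0198 to 0.02 over the left-out libraries. These ranges were -0.0542 to 0.0061 for Mvk, -0.0014 to 0.0512 for Mvd, -0.0504 to 0.0034 for Msmo1 and -0.0485 to 0.0158 for Acly, which was at 0.0118 without replicate 3 in both groups. DESeq2 lost Lss and the fit without a filter lost Lss and Nsdhl, and Fdps passed (adjusted p = 0.0336, limma) without WT replicate 1. By DESeq2 the adjusted p was larger than by limma for Fasn (0.0343) and Scd1 (0.0171), and smaller for Scd2 (1.52e-42). With TMM factors, 28 members remained above the mean in WT replicate 3 and 27 in DKO replicate 3. No scaling moved the median of all genes by 0.01. With 1 line per genotype, these errors do not cover differences between clones.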

Other observations

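Scd3, a further desaturase paralog that is in none of the lists and was chosen after its values were seen, measured 111, 121 and 136 normalized reads in WT and 90.4, 72.5 and 86.6 in DKO (log2 fold change -0.55 ± 0.12, SE, limma adjusted p = 4.39e-04). It shared its direction with Scd2 and not with Scd1, at a level far under both. Of the fatty acid elongases listed, Elovl1 measured 528 ± 22.2 in WT and 553 ± 25.9 in DKO and did not pass the test. Elovl6, which extends palmitate, measured 15190 ± 419 in WT and 14436 ± 234 in DKO (SD, n = 3 each, adjusted p = 0.0128), and Elovl5 fell from 4020 ± 119 to 3552 ± 39.6. Lbr, a sterol reductase that also binds lamin, rose from 15707 ± 476 to 17016 ± 384 (log2 fold change 0.12 ± 0.03, adjusted p = 2.93e-04). Insig2, the paralog of Insig1, rose from 430 ± 15.2 to 479 ± 35.9 (0.15 ± 0.06, adjusted p = 0.042), against the direction of Insig1. The site-1 protease Mbtps1, which cleaves Srebp precursors, rose from 7920 ± 165 to 8915 ± 87.8. These genes were also chosen after their values were seen.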
